A study of Homo sapiens with 16 samples.

Results

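IGFBP3 and 9 other genes of the insulin-like growth factor (IGF) axis were followed across the 4 groups of an RNA sequencing experiment in HCT116, a long-established line of human colon carcinoma cells. The 10 genes, of 22916 in the deposited table of TMM-scaled CPM (counts scaled to a common library size), were taken by symbol and comprised 5 binding proteins (IGFBP2, IGFBP3, IGFBP4, IGFBP6 and IGFBP7), 3 receptors (IGF1R, IGF2R and INSR) and 2 adaptors (IRS1 and IRS2). All 10 symbols were found, and 9 passed the low-count filter among 17104 tested genes; IGFBP7 did not. The members were chosen by their TMM-scaled CPM in all 16 libraries, which were in view when the list was drawn up. The levels and differences of its members are therefore given as a description, with no p-value.

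The cells were either unedited (WT below) or edited to carry a truncated Rpn10 (truncation below) without its ubiquitin interacting motif. Rpn10, encoded by PSMD4, is a proteasome subunit that recognises ubiquitin chains. Cells of each genotype were given a scrambled siRNA (scramble) or a mix of 4 siRNAs against OTUD5 (knockdown), a deubiquitinase, at 50 nM, by lipid transfection for 48 hours. The 4 groups had 4 libraries each, and the scramble libraries carried the transfection too. Whether the edited cells were 1 clone is not given in the labels. A difference between genotypes therefore cannot be told apart from a difference between lines, nor OTUD5 loss from other effects of the same siRNA mix. The libraries are called biological replicates with no separate cultures named, so errors and p-values describe how these libraries vary among themselves. The 4 truncation knockdown libraries have titles that say scramble, while their description and treatment entries say OTUD5 siRNA, and the latter were followed.

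IGF1 and IGF2 are secreted growth factors that signal through IGF1R, a receptor tyrosine kinase that can also pair with the insulin receptor INSR. The active receptors phosphorylate the adaptors IRS1 and IRS2, which recruit PI3-kinase and so activate AKT, mTOR and, in the opposite sense, the FOXO transcription factors. Secreted IGF-binding proteins hold the ligands outside the cell, and IGF2R, which is also the cation-independent mannose 6-phosphate receptor, takes up IGF2 for degradation in lysosomes.

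Total counts ran from 28777244 to 29645663 per library. OTUD5 averaged 88.5 ± 3.18 CPM (SD, n = 4) in WT scramble and 20.0 ± 2.05 in WT knockdown, and 94.9 ± 2.27 in truncation scramble and 20.7 ± 1.49 in truncation knockdown. No knockdown library overlapped a scramble library, so the OTUD5 level of each library matches its treatment entry. PSMD4 counts cover the whole gene and do not check the truncation; they averaged 236, 263, 202 and 321 CPM in the same order. Not all listed epithelial markers were present, and those present did not move 1 way. CDX1, LGALS4 and CEACAM5 were not in the table, with at most 2, 5 and 2 counts in a library. From WT scramble to truncation knockdown KRT8 averaged 2164 and 3085 CPM and KRT18 486 and 688 CPM. EPCAM averaged 220.5 and 112 CPM and CDH1 51.8 and 28.4 CPM in the same groups. CDH1 was at 59.6 CPM in WT knockdown and 28.5 CPM in truncation scramble, and VIL1, a marker of differentiated gut epithelium, did not exceed 0.526 CPM in any library. Summed over the 7 of 10 epithelial markers in the table, the level was 4130 to 4739 CPM in WT scramble. It was 4033 to 5281 CPM after knockdown in WT. In truncation it was 4259 to 4610 CPM after scramble and 4642 to 5573 CPM after knockdown. Most of this sum was KRT8 and KRT19, at means of 2164 and 1287 CPM in WT scramble. Summed fibroblast markers (6 of 7 listed genes in the table) ran from 34.4 to 57.2 CPM, and summed endothelial markers (4 of 4) from 0.665 to 2.89 CPM. The fibroblast sums were 47.2 to 57.2 CPM in WT scramble, mostly COL1A1, and 34.5 to 38.2 CPM in truncation scramble, where IGFBP3 was highest. Summed leukocyte markers (4 of 5) reached 14.6 CPM in 1 WT scramble library, with PTPRC at 11.7 CPM, and at most 2.73 CPM in the other groups. Their part in the results below was not tested. WT knockdown replicate 2 stood farthest from its group, with chi-square values per degree of freedom of 16.5 to 20.8 against the other 3 libraries, and WT knockdown replicate 3 had 32264 genes detected, where no other library exceeded 27765.

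The upstream sequences of 4 members are shown because IGFBP3 had the largest difference between genotypes and IRS1 and IRS2 are the adaptors that differed in opposite directions, and because IGF2R holds the least common of the motifs searched. Each is the 250 bases before the gene's start in RefSeq (GRCh38.p14), printed 5′ to 3′ on the gene's strand. RefSeq promoters were matched by symbol for 9 of the 10 members. Capitals mark a TATA box (TATANA) in IGFBP3, GC boxes (GGGCGG) in IRS1, an insulin response element (CAAAACA) in IRS2 and the core of the lysosomal-gene CLEAR element (GTCACGTG) in IGF2R.
IGFBP3, chr7:45921273-45921522, minus strand: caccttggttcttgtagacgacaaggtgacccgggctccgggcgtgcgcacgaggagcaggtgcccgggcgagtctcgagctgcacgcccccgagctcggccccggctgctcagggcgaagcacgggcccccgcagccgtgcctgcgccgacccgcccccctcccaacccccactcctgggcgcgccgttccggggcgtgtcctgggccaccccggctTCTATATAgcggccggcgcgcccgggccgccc
IRS1, chr2:226799821-226800070, minus strand: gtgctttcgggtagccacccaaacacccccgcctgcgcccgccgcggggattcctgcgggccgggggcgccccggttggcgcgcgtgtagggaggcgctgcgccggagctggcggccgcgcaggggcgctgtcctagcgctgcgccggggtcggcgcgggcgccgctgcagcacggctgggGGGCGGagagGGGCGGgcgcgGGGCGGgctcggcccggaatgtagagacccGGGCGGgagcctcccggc
IRS2, chr13:109786584-109786833, minus strand: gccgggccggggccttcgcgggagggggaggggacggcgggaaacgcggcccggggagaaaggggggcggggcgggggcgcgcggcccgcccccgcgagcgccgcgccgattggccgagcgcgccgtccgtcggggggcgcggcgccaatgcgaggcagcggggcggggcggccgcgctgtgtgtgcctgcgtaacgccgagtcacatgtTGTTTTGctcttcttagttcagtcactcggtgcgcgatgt
IGF2R, chr6:159968832-159969081, plus strand: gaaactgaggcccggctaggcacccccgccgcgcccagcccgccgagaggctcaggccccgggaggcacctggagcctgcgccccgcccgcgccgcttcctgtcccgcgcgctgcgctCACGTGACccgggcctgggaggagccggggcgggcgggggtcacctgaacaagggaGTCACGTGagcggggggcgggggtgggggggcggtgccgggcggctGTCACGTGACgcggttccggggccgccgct

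In the IGFBP3 stretch the TATA letters lie about 30 bases before the start, the usual place of such a box. On either strand the same letters occur in 17.7% of 35116 RefSeq promoters. In GENCODE v29 the IGFBP3 gene starts 602 bases upstream of the RefSeq start, so the stretch lies within the annotated gene. IGFBP4 was the other member with TATANA. The GC box, which SP-family factors bind, was found in all 9 matched members and in 42.6% of all promoters. It had 4 places in IRS1, 6 in IGF2R, 5 in IRS2, 4 in INSR and 2 in IGFBP3. Some places overlap, and only those in IRS1 are in capitals above. The shares of all promoters were not adjusted for base composition. The stretches printed above are 76.0% to 80.8% G or C, and the median over all promoters is 58.0%. IGFBP2 had several windows, not all with a GC box. Nothing is therefore read from the number of members with a GC box. CAAAACA, on the opposite strand of the IRS2 stretch, occurs in 4.3% of promoters, and GTCACGTG, with 3 separate stretches in IGF2R, in 2.16%. The FOXO site GTAAACA (2.98% of promoters) was found in IGFBP6, and the antioxidant element core TGACNNNGC (10.9%) in IRS2. All 6 motifs were chosen after the sequences had been seen, and a match describes letters, not binding.

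IGFBP3, the binding protein that carries most circulating IGF, had the largest log2 fold change of the 9 tested members in both genotype comparisons and in the truncation knockdown comparison. The gene lies at chr7:45912245-45921874 on the minus strand (GRCh38), 18577 bp from IGFBP1, with no protein-coding gene between them. Its level in the 4 WT scramble libraries was 3.48, 2.90, 2.60 and 2.75 CPM. In the 4 truncation scramble libraries it was 15.3, 18.1, 16.3 and 17.6 CPM. All 4 truncation scramble libraries were thus far above every other library, and no values overlapped. IGFBP3 was 5.67-fold higher in truncation than in WT after scramble (log2 fold change 2.50 ± 0.14 SE, and 2.45 to 2.60 when each library was left out).

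OTUD5 siRNA was accompanied by lower IGFBP3 in both genotypes. WT knockdown libraries had 1.58, 0.734, 1.94 and 1.60 CPM. Truncation knockdown libraries had 3.01, 3.34, 3.93 and 3.53 CPM. Neither knockdown group overlapped the scramble group of its genotype, and the lowest value of all was WT knockdown replicate 2. IGFBP3 was 1.98-fold lower in WT (log2 -0.98 ± 0.18 SE) and 4.76-fold lower in truncation (log2 -2.25 ± 0.14). Without WT knockdown replicate 2 the WT value was -0.76. The difference between the genotypes' responses was -1.26 ± 0.23 on the log2 scale, with a range of -1.49 to -1.10 when each library was left out in turn. After knockdown the truncation cells were still 2.36-fold above WT (log2 1.24 ± 0.18). The truncation knockdown libraries overlapped those of WT scramble, with a log2 difference of 0.25 ± 0.16. In whole-culture RNA, fewer expressing cells and less RNA per cell cannot be told apart.

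**Figure D1:**
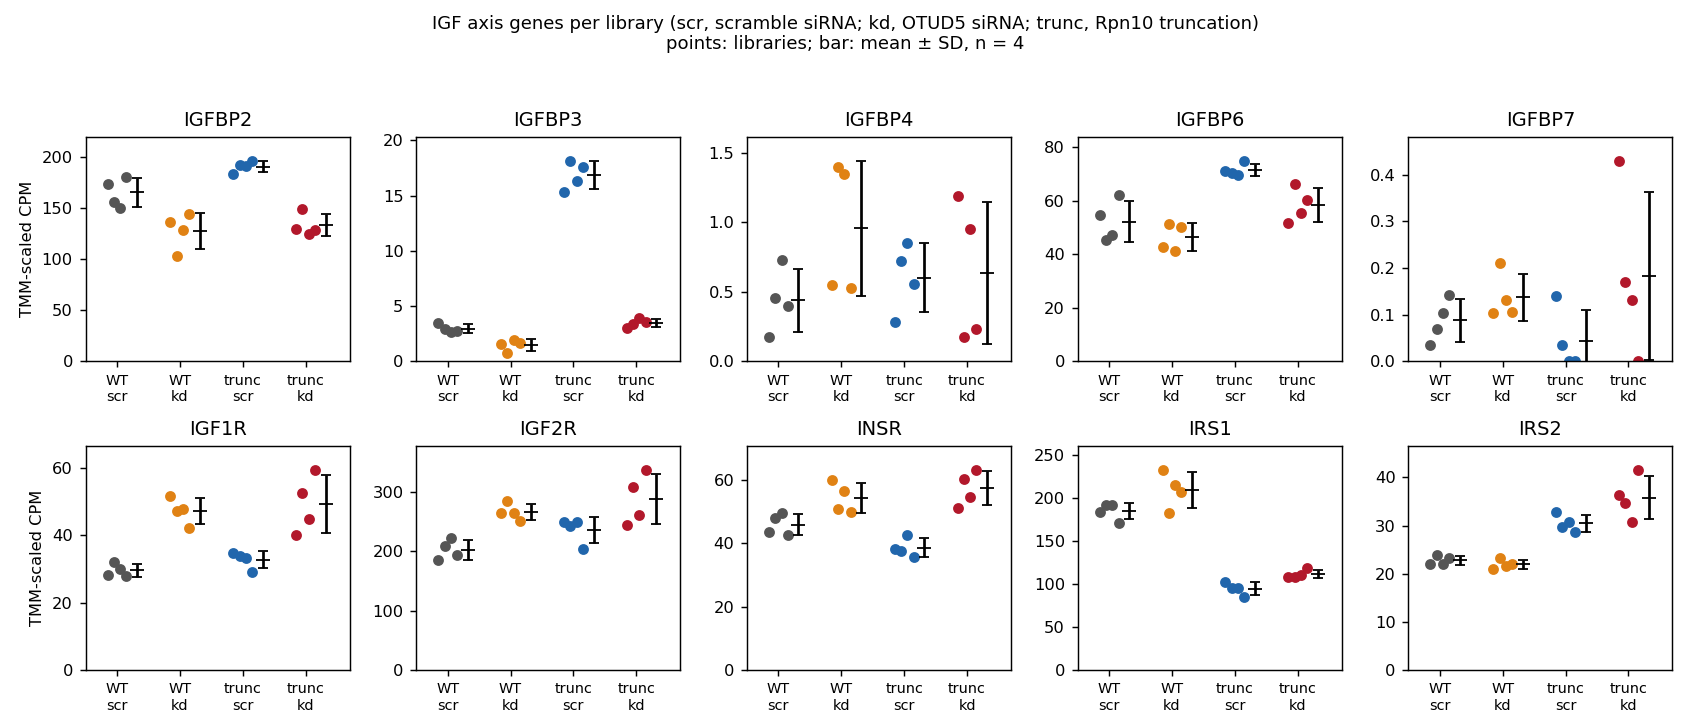
TMM-scaled CPM (vertical axis, linear, from 0) of the 10 IGF axis genes in each library (points) of the 4 groups, with the group mean ± SD (bar; n = 4, cut off at 0). IGFBP3 stands at 15.3 to 18.1 CPM in truncation scramble and at most 3.93 CPM elsewhere, and IRS1 is lower in all truncation libraries than in all WT libraries.

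The other abundant binding proteins differed less. IGFBP2 (chr2:216632828-216664436, plus strand) encodes a binding protein with a preference for IGF2. Its levels were 174, 156, 149.6 and 181 CPM in WT scramble, and 136, 103, 128 and 144 CPM in WT knockdown. They were 183, 191, 191 and 196 CPM in truncation scramble, and 129.6, 149, 125 and 129 CPM in truncation knockdown. The knockdown libraries were lower in both genotypes without overlap. IGFBP2 was 1.28-fold lower after knockdown in WT (log2 -0.36 ± 0.08 SE) and 1.40-fold lower in truncation (log2 -0.48 ± 0.08). The truncation scramble libraries were all above those of WT scramble, but the log2 difference of 0.19 ± 0.08 did not pass the threshold used across all genes. It passed under several other settings, among them DESeq2, at 0.20, and the fits without WT scramble replicate 1, at 0.22, without replicate 4, at 0.24, or without truncation scramble replicate 1, at 0.22.

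IGFBP6 (chr12:53097436-53102345, plus strand) encodes the binding protein with the strongest preference for IGF2. It had 54.8, 45.2, 47.1 and 62.0 CPM in WT scramble and 71.2, 70.3, 69.6 and 74.9 CPM in truncation scramble. After knockdown it had 42.7, 51.3, 41.2 and 50.4 CPM in WT and 51.5, 66.2, 55.3 and 60.3 CPM in truncation. Truncation libraries were above WT libraries under either siRNA, by log2 0.44 ± 0.09 (SE) after scramble and 0.34 ± 0.09 after knockdown, and neither contrast overlapped. The knockdown difference was -0.26 ± 0.09 in truncation, without overlap, and -0.16 ± 0.09 in WT, where the libraries overlapped. Upper-quartile scaling took the truncation value to -0.20, which was no longer called, and leaving out WT scramble replicate 2 took the WT value to -0.23, which was then called.

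IGFBP4 (chr17:40443461-40457731, plus strand), an inhibitory binding protein cleaved by the protease PAPPA, and IGFBP7 (chr4:57030773-57110385, minus strand), a secreted relative with low affinity for IGFs, were near the limit of counting. IGFBP4 had 5 to 41 counts per library, with group means between 0.437 and 0.954 CPM, and its groups overlapped in all 4 comparisons. Its log2 fold changes had errors of 0.46 to 0.52, and the WT knockdown difference of 1.13 ± 0.49 passed the threshold in some settings, such as 1.49 without WT scramble replicate 3, 1.32 without WT knockdown replicate 1 and 1.34 without WT knockdown replicate 4. Without truncation knockdown replicate 1, its knockdown value in truncation went from 0.11 to -0.40. IGFBP7 had 0 to 13 counts per library and was not tested. It shares 270 bp of exon with POLR2B on the opposite strand, and since the strand setting is not given, its few reads cannot be assigned with certainty.

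IGFBP3 made up a larger share of binding protein reads in the truncation scramble libraries. Of the summed counts of the 5 binding proteins, it took 1.33% ± 0.16 (SD, n = 4) in WT scramble and 0.819% ± 0.27 after knockdown. In truncation it took 6.02% ± 0.34 after scramble and 1.78% ± 0.27 after knockdown. The share in truncation scramble overlapped no other group. Since the share is taken within a library, it does not depend on scaling between libraries, but it does depend on transcript length.

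IGF1R (chr15:98648539-98964530, plus strand), the main signalling receptor for IGF1 and IGF2, was higher after OTUD5 siRNA in both genotypes. It had 28.3, 32.1, 30.0 and 27.8 CPM in WT scramble and 51.8, 47.2, 47.8 and 42.1 CPM in WT knockdown. It had 34.8, 33.8, 33.2 and 29.2 CPM in truncation scramble and 40.1, 52.6, 44.8 and 59.5 CPM in truncation knockdown. No knockdown library overlapped a scramble library. IGF1R was 1.61-fold higher after knockdown in WT (log2 0.69 ± 0.09 SE) and 1.54-fold higher in truncation (log2 0.62 ± 0.09). Between genotypes the libraries overlapped under either siRNA, with log2 differences of 0.13 ± 0.10 after scramble and 0.07 ± 0.09 after knockdown.

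INSR (chr19:7112255-7294034, minus strand), the insulin receptor, was also higher after knockdown, with different sizes in the 2 genotypes. It had 43.7, 48.0, 49.7 and 42.5 CPM in WT scramble and 60.2, 51.0, 56.6 and 49.9 CPM in WT knockdown. It had 38.3, 37.7, 42.7 and 35.6 CPM in truncation scramble and 51.2, 60.4, 54.9 and 63.3 CPM in truncation knockdown. The knockdown groups lay above the scramble groups of their genotype without overlap, by log2 0.25 ± 0.08 (SE) in WT and 0.61 ± 0.08 in truncation. INSR was 1.20-fold lower in truncation than in WT after scramble (log2 -0.27 ± 0.08), where 1 truncation library reached the WT range, and 0.09 ± 0.08 on the log2 scale apart after knockdown. The difference between the knockdown responses, 0.35 ± 0.11, was not called, but it was called under several other settings, among them DESeq2 at 0.34, upper-quartile scaling at 0.41, and the fits without WT scramble replicate 4 at 0.39, WT knockdown replicate 1 at 0.38, truncation scramble replicate 3 at 0.39 or truncation knockdown replicate 1 at 0.39.

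IGF2R (chr6:159969099-160113507, plus strand) had the most reads of the receptors. It had 185, 209, 223 and 193 CPM in WT scramble and 266, 285, 264 and 251 CPM in WT knockdown. It had 249.6, 242, 249 and 203 CPM in truncation scramble and 245, 308, 262 and 338 CPM in truncation knockdown. All WT knockdown libraries were above all WT scramble libraries, by log2 0.41 ± 0.08 (SE). In truncation the log2 difference was 0.32 ± 0.08 and the groups overlapped, since the lowest knockdown library fell within the scramble range. Truncation scramble was 0.21 ± 0.08 above WT scramble on the log2 scale with overlapping libraries, and this call was lost with upper-quartile scaling, at 0.16. It was also lost without WT scramble replicate 1, at 0.17, replicate 2, at 0.22, or replicate 4, at 0.19, and without truncation scramble replicate 1, at 0.19, replicate 2, at 0.21, or replicate 3, at 0.19.

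The balance of the signalling receptors set WT scramble apart. Within each library the ratio of IGF1R to INSR counts was 0.644 ± 0.028 (SD, n = 4) in WT scramble. It was 0.869 ± 0.039 after knockdown in WT, and in truncation 0.851 ± 0.063 after scramble and 0.852 ± 0.069 after knockdown. WT scramble was thus below the other 3 groups without overlap, and those 3 groups overlapped.

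The adaptors IRS1 and IRS2, which couple both receptors to PI3-kinase, differed in opposite directions between the genotypes. IRS1 (chr2:226731317-226799759, minus strand) had 184, 192, 192 and 172 CPM in WT scramble and 102, 95.8, 95.5 and 84.3 CPM in truncation scramble. After knockdown it had 233, 183, 215 and 208 CPM in WT and 108, 108, 111 and 118 CPM in truncation. Every truncation library was below every WT library. IRS1 was 1.98-fold lower in truncation after scramble (log2 -0.98 ± 0.07 SE) and 1.87-fold lower after knockdown (log2 -0.90 ± 0.07). The knockdown difference was small, 0.19 ± 0.07 on the log2 scale in WT with overlapping libraries and 0.27 ± 0.07 in truncation without overlap. The WT call was lost without WT scramble replicate 4, at 0.16, without WT knockdown replicate 1, at 0.14, and without WT knockdown replicate 3, at 0.17.

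IRS2 (chr13:109752698-109786568, minus strand), the second adaptor and a known FOXO target, had 21.9, 23.8, 22.0 and 23.3 CPM in WT scramble and 32.7, 29.7, 30.8 and 28.7 CPM in truncation scramble. After knockdown it had 20.9, 23.2, 21.6 and 21.9 CPM in WT and 36.3, 34.7, 30.8 and 41.6 CPM in truncation. Every truncation library was above every WT library. IRS2 was 1.33-fold higher in truncation after scramble (log2 0.41 ± 0.08 SE) and 1.65-fold higher after knockdown (log2 0.72 ± 0.08). In WT the knockdown difference was -0.04 ± 0.08, with overlap, and in truncation it was 0.27 ± 0.08, also with overlap. The difference between these responses, 0.31 ± 0.11, was called only without truncation knockdown replicate 3, at 0.36, among the leave-out settings.

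The opposite directions showed in the ratio of IRS1 to IRS2 counts within each library. It was 8.14 ± 0.57 (SD, n = 4) in WT scramble and 9.61 ± 1.36 in WT knockdown. It was 3.10 ± 0.12 in truncation scramble and 3.13 ± 0.33 in truncation knockdown. The lowest WT ratio was 7.38 and the highest truncation ratio 3.60, so the genotypes did not overlap.

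**Figure D2:**
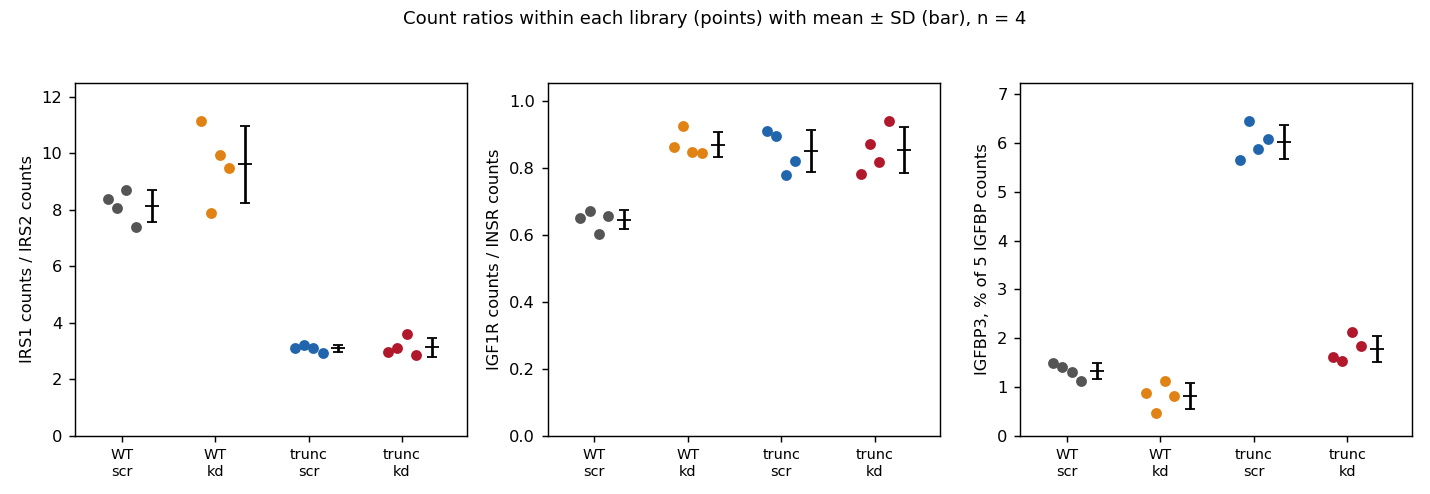
Ratio of IRS1 to IRS2 counts, ratio of IGF1R to INSR counts, and IGFBP3 as a percent of the summed counts of 5 IGF-binding proteins (vertical axes, linear, from 0) in each library (points), with the group mean ± SD (bar; n = 4). The IRS1 to IRS2 ratio lies at 2.84 to 3.60 in the truncation libraries and at 7.38 to 11.2 in the WT libraries.

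Set side by side, the members did not share 1 direction. In truncation against WT after scramble, 6 of the 9 tested members were called at an adjusted p under 0.05, 4 higher and 2 lower. Of all tested genes 44.0% were called, 21.6% higher and 22.4% lower. After knockdown 4 were called, 3 higher and 1 lower, against 45.5% of all genes (21.9% higher, 23.6% lower). For knockdown against scramble, 6 were called in WT, 4 higher and 2 lower, against 50.3% of all genes (25.2% higher, 25.1% lower). In truncation 8 were called, 5 higher and 3 lower, against 56.7% of all genes (28.7% higher, 28.1% lower). IGFBP3 alone was called for the difference between the genotypes' knockdown responses, in the lower direction, against 5.69% of all genes (2.05% higher, 3.65% lower). The members' median log2 fold changes in these 5 comparisons were 0.21, 0.09, 0.19, 0.27 and -0.08, and those of all tested genes -0.02, 0.00, 0.01, 0.02 and -0.01. Comparisons that share a group share its libraries. Since these contrasts were in view when the list was made, nothing is read from the counts.

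By role, all 3 receptors averaged higher after knockdown in both genotypes, with overlapping libraries for IGF2R in truncation. IGFBP2 and IGFBP3 were lower in both. Of all tested genes 25.2% were called higher and 25.1% lower in WT, and 28.7% and 28.1% in truncation. The members were chosen with these values in view, so this is a description. In truncation scramble, all libraries had more IGFBP2, IGFBP3 and IGFBP6 than any WT scramble library. IGFBP3 and IGFBP6 were called higher there, as were 21.6% of all tested genes, and IGFBP2 was not called. IGFBP4 overlapped in this comparison and IGFBP7 was not tested. How many of all tested genes had no overlap in this comparison was not counted, so nothing is read from the lack of overlap.

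**Figure D3:**
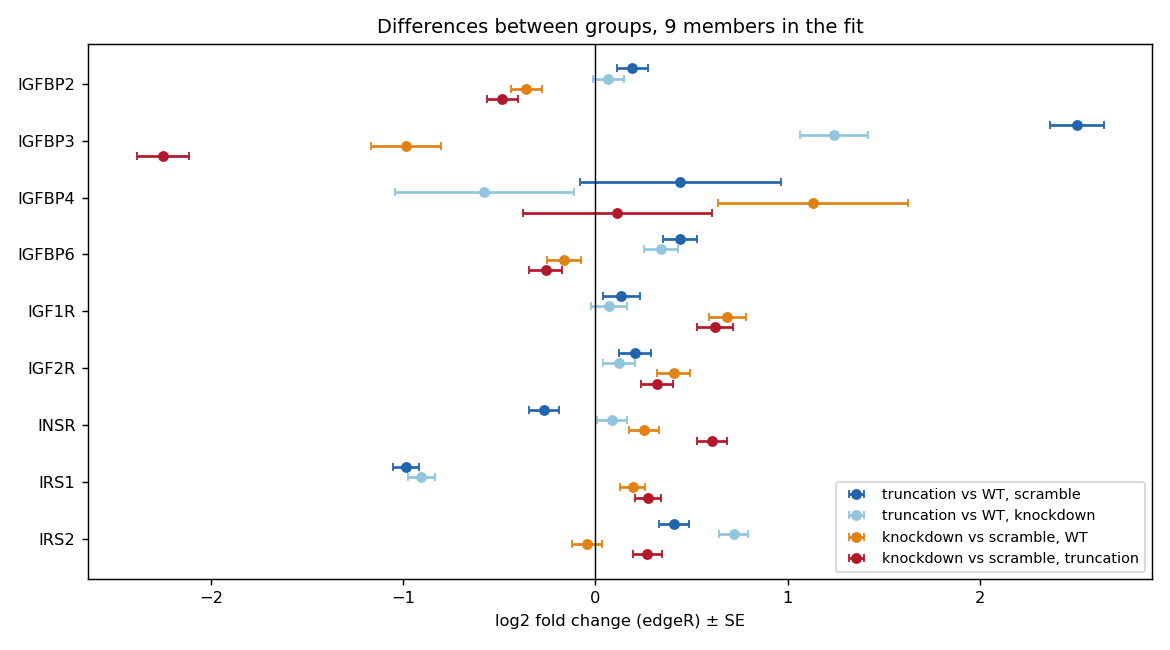
Log2 fold change (horizontal axis, points) ± SE (bars) of the 9 tested IGF axis genes in the comparisons of the design, from edgeR. IGFBP3 spans 2.50 to -2.25, IRS1 stands at -0.98 and -0.90 in the genotype comparisons, and the 3 receptors lie right of 0 in both knockdown comparisons.

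Levels can be set between genes only per length, here as CPM per kb of merged GENCODE v29 exons. Merged exons can be longer than the transcript expressed, so the ranks depend on this choice. The merged length was 4.767 kb for IGFBP2 and 1.346 kb for IGFBP6. IGFBP6 and IGFBP2 ranked first and second in every group, at 38.8 ± 5.72 and 34.6 ± 3.05 CPM per kb (SD, n = 4) in WT scramble, and these neighbours overlapped there. In that group IRS1 (18.6 ± 0.962), IGF2R (11.4 ± 0.946), INSR (4.40 ± 0.329), IRS2 (2.80 ± 0.114) and IGF1R (2.12 ± 0.139) followed, without overlap between neighbours. IGFBP3 was eighth of the 10 at 0.642 ± 0.085 CPM per kb, above IGFBP4 at 0.199 ± 0.104 and IGFBP7 at 0.0456 ± 0.024. In truncation scramble IGFBP3 stood at 3.68 ± 0.277 CPM per kb, beside INSR at 3.69 ± 0.288 and IRS2 at 3.74 ± 0.214, and these 3 overlapped. IRS1 and IGF2R changed places between the genotypes: per kb, IRS1 stood above IGF2R in both WT groups and below it in both truncation groups.

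The genes whose levels followed IGFBP3 most closely over the 16 libraries were sought among 12419 genes, by Pearson's r on log2(CPM + 0.5). The libraries fall into 4 groups, so r mostly compares group levels. The closest were PDE2A, a cyclic nucleotide phosphodiesterase (r = 0.98), TRMT2B, a mitochondrial RNA methyltransferase (0.979), DDIT4L, a stress-induced mTOR regulator (0.975), SULT1A2, a sulfotransferase (0.974), and CAMKK1, a calcium-dependent kinase (0.974). SULT1A2 has near-identical paralogs, so its counts are uncertain. PDE2A averaged 7.79, 4.71, 19.0 and 8.48 CPM and DDIT4L 5.65, 3.71, 21.8 and 6.55 CPM, with WT before truncation and scramble before knockdown. Once the group means were taken out, r with IGFBP3 was 0.62 for PDE2A, 0.775 for DDIT4L and 0.216 for TRMT2B. The most opposed were DKK1, a secreted inhibitor of Wnt signalling (r = -0.989), FAM3C2P, a pseudogene whose counts are uncertain (-0.976), and CEP95 (-0.973). DKK1 averaged 122, 201, 35.2 and 119 CPM in the same order, the reverse of IGFBP3. Among the members, r with IGFBP3 ran from -0.808 for IRS1 to 0.807 for IGFBP6.

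**Figure D4:**
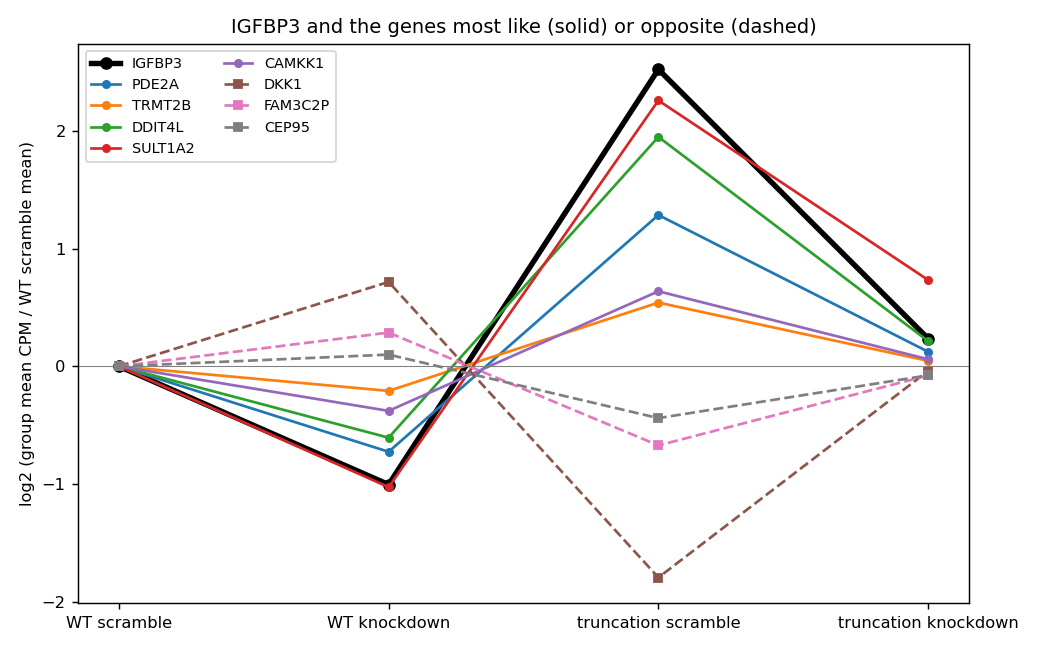
Log2 ratio of each group's mean CPM to the WT scramble mean (vertical axis) in the 4 groups (horizontal axis) for IGFBP3, the 5 genes most like it (solid lines) and the 3 most opposed (dashed lines). PDE2A and DDIT4L peak with IGFBP3 in truncation scramble, and DKK1 is lowest there.

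The ligands were scarce. IGF2 had 6.45, 7.64, 6.80 and 6.83 CPM in WT scramble and 4.15, 2.76, 3.78 and 5.26 CPM in WT knockdown. In truncation it had 6.62, 6.44, 6.32 and 6.06 CPM after scramble and 3.20, 3.89, 3.21 and 3.92 CPM after knockdown. The knockdown libraries were below the scramble libraries without overlap in both genotypes. IGF2 fell by log2 0.79 ± 0.13 (SE) in WT and 0.80 ± 0.13 in truncation (edgeR quasi-likelihood adjusted p 2.04e-05 and 1.43e-05). IGF1 had 0 to 22 counts per library and insulin at most 1. IGFBP3 and IGF2 were thus both lower after knockdown, and IGF2 did not differ detectably between genotypes (log2 -0.14 ± 0.13 after scramble, adjusted p 0.397).

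Of 110 other genes of the pathway in 8 lists, 99 were in the table and 92 were tested. All 8 lists were chosen with earlier results of these data known, so counts over a list are a description. In truncation against WT, 31 rose and 20 fell after scramble, where 21.6% of all tested genes rose and 22.4% fell. After knockdown 27 rose and 20 fell, against 21.9% and 23.6% of all genes. For knockdown against scramble, 43 rose and 25 fell in WT (25.2% and 25.1% of all genes), and 41 rose and 23 fell in truncation (28.7% and 28.1%). Among 7 tested proteins with an IGFBP-like domain, 4 rose and 2 fell after knockdown in WT and 3 rose and 2 fell in truncation, where 50.3% and 56.7% of all genes were called. KAZALD1 fell by log2 1.47 in WT and 1.68 in truncation after knockdown (adjusted p 3.76e-08 and 2.78e-08), and CRIM1 rose by 1.03 and 1.55 (4.58e-09 and 1.89e-12). STC2, a stanniocalcin that blocks the IGFBP4 protease PAPPA, fell by 0.87 ± 0.08 in truncation after scramble (8.39e-10), the direction opposite to IGFBP3. After knockdown STC2 rose by 0.31 in WT and 0.69 in truncation (0.00115 and 2.44e-08). PAPPA itself had at most 14 counts per library and was not tested.

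Of 28 tested genes of PI3-kinase, AKT and mTOR signalling, 12 rose and 4 fell in truncation after scramble, and 10 rose and 6 fell after knockdown, where 44.0% and 45.5% of all genes were called. The regulatory PI3-kinase subunit PIK3R1 rose by log2 0.91 in truncation after scramble and 0.74 after knockdown (adjusted p 1.23e-09 and 5.34e-08), and MTOR fell by 0.75 and 0.83 (1.83e-09 and 3.16e-10). Of 22 other receptors, adaptors and inhibitors, 10 rose and 6 fell in truncation after scramble, and 9 rose and 3 fell after knockdown, beside the same shares of all genes. The docking protein GAB2, which acts beside the IRS adaptors, rose by 1.10 and 1.07 in the same comparisons (3.86e-10 and 8.65e-10), with IRS2 and against IRS1. AKT1 fell after knockdown by 0.82 in WT and 0.99 in truncation (4.43e-11 and 6.45e-13), where the 3 member receptors were higher. CUL7, the scaffold of a ubiquitin ligase known to target IRS1 protein, fell after knockdown by 0.55 and 0.86 (7.08e-06 and 3.55e-09). In truncation against WT, CUL7 rose by 0.51 after scramble (2.05e-05), and its 0.20 after knockdown was not called (0.0583). IRS1 RNA was lower in both of these genotype comparisons, and a link between the genes was not tested.

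Of 18 FOXO factors and known targets, which include no member, 11 rose and 2 fell after knockdown in WT, and 12 rose and 1 fell in truncation, with medians of 0.49 and 0.65 on the log2 scale. Of all tested genes 25.2% rose and 25.1% fell in WT and 28.7% rose and 28.1% fell in truncation, with medians of 0.01 and 0.02. Since the list was chosen with earlier results of these data known, its counts and medians are a description only. CITED2 rose by 1.44 and 1.57 and SESN1 by 1.15 and 1.11 (adjusted p 2.62e-14, 1e-15, 3.47e-13 and 1.64e-13). IRS2, itself a FOXO target, was at -0.04 ± 0.08 in WT and 0.27 ± 0.08 in truncation in the same comparisons. The other members were not sorted by FOXO control. Among them INSR was at 0.25 ± 0.08 in WT and 0.61 ± 0.08 in truncation, and a link of any member to FOXO was not tested. Of 8 genes of mannose 6-phosphate sorting, the pathway IGF2R serves, 3 rose and 3 fell in each genotype, beside the same shares of all genes. M6PR, the cation-dependent receptor beside IGF2R, fell by 0.34 in WT and 0.60 in truncation (8.36e-06 and 6.95e-10), while IGF2R was higher in both. IGF2BP3, which binds IGF2 mRNA, fell in truncation by 0.71 after scramble and 0.55 after knockdown (1.95e-08 and 8.24e-07), and IGF2BP1 and IGF2BP2 did not pass the test in either.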

How the data were processed

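RNA of 16 HCT116 samples was purified on columns and sequenced by a commercial vendor after a proprietary Nextera-XT-type preparation, per the labels' protocols. The authors deposited raw counts per gene, filtered counts, and TMM-scaled CPM (a signal), which equalled CPM recomputed here from the filtered counts to a relative difference of 5e-15. Per the submitters' processing notes the tools were edgeR, limma, DESeq2 and STAR 2.7.3a, and the build hg38, with no role given. The counter, gene annotation and use of strand were not given in the sources used here.

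Raw counts of all 60668 listed genes were filtered with edgeR's filterByExpr, which left 17104, scaled by TMM and fitted in 1 model of 4 groups with edgeR 4.0.16 in R 4.3.3 (glmQLFit, glmQLFTest, 12 residual degrees of freedom, biological coefficient of variation 7.25%). P-values were adjusted over all tested genes (Benjamini-Hochberg) and a gene was called under 0.05. Depth was alike in all libraries, so low counts (IGFBP4, IGFBP7) set the precision; p-values assume independent libraries. Level correlations used log2(CPM + 0.5). Named genes were the 10 members, OTUD5 and PSMD4, and the 5 genes most and 3 least like IGFBP3. In each pathway list and comparison, up to 4 called genes with the largest log2 fold change were added. These had to average 1 or more on the log2 CPM scale. Where none was called, the 2 with the highest mean were taken. Of these the text gives a selection. Outside that rule stand IGF1, insulin, IGFBP5, IGF2BP1, PAPPA, FBXW8, the marker genes, and CUL7 and IGF2BP2 in the genotype comparisons. The members and lists were chosen with earlier results of these data known. Replicate samples of a group differed by more than sampling noise (chi-square per degree of freedom 2.75 to 20.8). Alternatives were other scalings, DESeq2 1.42.0, other filters, only the 2 groups compared, a replicate block and leaving out each library. Leaving out WT knockdown replicates 2 and 3 together was added after seeing the data, since these libraries stood apart. The scripts were tested on simulated counts. Gene positions are from GENCODE v29 (GRCh38) and promoters from RefSeq (GRCh38.p14).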

Additional observations from a re-analysis of the deposited data

Results flagged for a closer look

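IGF2R stood at 203.4 CPM in truncation scramble replicate 4, apart from the other 3 libraries of that group at 242.4 to 249.6 CPM. It was the only sample this far from its group among 40 groups of 4 values checked for the members, and chance alone sets apart about 1 group in 20.

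IGFBP3 is listed here for the difference between the genotypes' knockdown responses, -1.26 on the log2 scale (truncation minus WT). It is a description, since its values were in view when the members were chosen. By the interaction term of the edgeR fit, the knockdown response differed between the genotypes for 9 other genes of the pathway lists. The difference was -2.79 for IGFBP5, whose counts were only 0 to 17 per library, -0.43 for SORT1 and -0.26 for M6PR. It was 0.31 for SOCS3, 0.38 for STC2, 0.52 for FOXO1, 0.52 for CRIM1, 0.65 for SH2B2 and 0.72 for BCL6.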

How the results depend on the processing

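In the 4 comparisons of 2 groups, the counts of called genes, members and pathway genes stayed within 1.5 times under all settings run. For the interaction, 974 called genes became 1475 with DESeq2, 653 to 1661 when each library was left out (1661 without WT knockdown replicate 2) and 1642 without WT knockdown replicates 2 and 3. The 1 called member became 2 with upper-quartile scaling, DESeq2, no low-count filter or the replicate block, and 1 to 2 when each library was left out; IGFBP3 was joined by INSR, or by IRS2 without truncation knockdown replicate 3. The 9 pathway genes became 5 to 13 when each library was left out, with 5 without WT knockdown replicate 1 or truncation scramble replicate 3, and became 14 without WT knockdown replicates 2 and 3. The cause was not tested. Upper-quartile scaling moved the share of higher calls from 35.9% to 55.8% for the interaction. That share also went from 49.0% to 40.3% for truncation against WT after scramble. For knockdown in truncation it went from 50.5% to 57.1%. It changed little for truncation against WT after knockdown (48.1% to 48.8%) and for knockdown in WT (50.2% to 51.0%). Replicate numbers did not pair the samples: same-numbered libraries' deviations correlated at -0.124 to 0.22, and 1 or 2 of 4 matched best with their own number. The replicate block gave 7, 4, 7 and 8 called members in the other comparisons. The fit of only the groups compared was not run for the interaction. Of the member fold changes, 753 values moved by less than the spread between replicates and 7, of IGFBP2 and IGFBP4, by more; low counts limit IGFBP4.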
